A study of Mus musculus with 44 samples.

Results

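The class I genes of the mouse major histocompatibility complex (MHC) and the genes that load their peptides were followed in sorted marrow cells enriched for blood-forming stem and progenitor cells, taken from 22 strains of BXD mice. The members were 10 genes, taken as every probe set that the platform's probe table assigns to H2-K1, H2-D1, B2m, Tap1, Tap2, Tapbp, Psmb8, Psmb9, H2-M3 or H2-Q10 alone. They had 18 of the 12422 probe sets that were not array controls, and 17 of these were among the 7453 bright enough to be tested. The exception was H2-M3 102730_at, which averaged 4.76 on the log2 scale. A further 3 probe sets listed a member beside other genes and were not used.

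BXD strains are recombinant inbred lines descended from C57BL/6 and DBA/2 parents, each homozygous for its own mixture of both genomes. Marrow was pooled from 3 females aged between 3 and 6 months for each sample. Cells with Sca-1 and c-kit but without lineage markers were sorted, where lineage-negative meant the 5% of cells with the least lineage staining, and 16000 to 118000 cells were collected. Each strain had 2 Affymetrix MG_U74Av2 arrays, a one-colour oligonucleotide array, in 1 of 2 array series. Series B held BXD1, BXD2, BXD5, BXD9, BXD14, BXD16, BXD18, BXD19, BXD21, BXD28, BXD34 and BXD39 on 24 arrays. Series A held BXD6, BXD8, BXD11, BXD12, BXD31, BXD32, BXD33, BXD38, BXD40 and BXD42 on 20 arrays. Which pool went on which array is not given in the labels, so p-values measure only how far these arrays spread, part of which may be technical, and the number of arrays limited the precision of every value. Levels below are log2 intensities after quantile normalization, with a floor of 4, and a difference in them cannot tell fewer cells of a type from less RNA per cell.

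A class I molecule is a heavy chain paired with beta-2 microglobulin, and it shows fragments of the cell's own proteins on the surface to T cells and natural killer cells. H2-K1 and H2-D1 encode classical heavy chains, H2-M3 and H2-Q10 encode nonclassical ones, and B2m encodes the light chain. Psmb8 and Psmb9 encode catalytic subunits of the immunoproteasome, which cuts proteins into peptides. Tap1 and Tap2 form the transporter that moves peptides into the endoplasmic reticulum, and Tapbp encodes tapasin, which holds empty class I molecules at that transporter. B2m lies on chromosome 2 and the other 9 members on chromosome 17. In the gene order of RefSeq they run from Tapbp at place 1 through H2-K1 at 11, Psmb9 at 29, Tap1 at 30, Psmb8 at 31, Tap2 at 32, H2-D1 at 132 and H2-Q10 at 148 to H2-M3 at 274, so that Psmb9, Tap1, Psmb8 and Tap2 are neighbours. The classical genes are highly polymorphic between C57BL/6, which carries haplotype b, and DBA/2, which carries haplotype d, and how well each probe set binds the transcript of either haplotype was not tested.

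Start-site sequences of 5 members are shown because they hold the motifs known from class I control and show how closely the heavy-chain genes are related. They are RefSeq windows of GRCm38.p6, written along the gene's own strand, with 250 bases before the annotated start and 50 after it. Capitals mark matches, on either strand, to GGGATTCCC (the core of a palindrome of the class I enhancer), TTTCACTTC (part of an interferon-response element of class I genes), GAAANNGAA (a general interferon-response core), TGACG (a cyclic AMP response half-site) and CCAAT (the CCAAT box). H2-K1 is at chr17:34000298-34000597 on the minus strand. The others are on the plus strand, H2-D1 at chr17:35262844-35263143, H2-Q10 at chr17:35469839-35470138, Tap1 at chr17:34187306-34187605 and B2m at chr2:122147437-122147736.
H2-K1: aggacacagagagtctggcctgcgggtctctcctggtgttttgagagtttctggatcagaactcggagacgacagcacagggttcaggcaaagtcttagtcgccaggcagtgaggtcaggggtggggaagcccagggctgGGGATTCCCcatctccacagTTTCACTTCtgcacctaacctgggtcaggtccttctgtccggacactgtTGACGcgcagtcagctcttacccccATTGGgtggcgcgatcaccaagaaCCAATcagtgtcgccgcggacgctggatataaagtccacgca
H2-D1: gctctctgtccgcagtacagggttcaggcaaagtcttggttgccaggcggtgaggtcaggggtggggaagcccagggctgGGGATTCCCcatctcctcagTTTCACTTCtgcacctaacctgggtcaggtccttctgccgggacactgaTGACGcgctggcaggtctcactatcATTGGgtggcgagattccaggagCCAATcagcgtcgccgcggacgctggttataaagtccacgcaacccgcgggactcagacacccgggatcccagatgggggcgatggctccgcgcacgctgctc
H2-Q10: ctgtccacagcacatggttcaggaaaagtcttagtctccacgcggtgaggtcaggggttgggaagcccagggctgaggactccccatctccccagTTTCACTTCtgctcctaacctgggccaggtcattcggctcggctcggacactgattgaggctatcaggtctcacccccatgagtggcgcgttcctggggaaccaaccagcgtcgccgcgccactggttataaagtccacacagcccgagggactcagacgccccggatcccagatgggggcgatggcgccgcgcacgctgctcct
Tap1: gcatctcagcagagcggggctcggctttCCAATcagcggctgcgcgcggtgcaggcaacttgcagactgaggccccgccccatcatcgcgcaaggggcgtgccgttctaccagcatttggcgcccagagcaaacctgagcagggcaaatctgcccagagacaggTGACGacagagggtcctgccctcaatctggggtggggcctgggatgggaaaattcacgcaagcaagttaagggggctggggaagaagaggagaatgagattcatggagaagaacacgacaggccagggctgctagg
B2m: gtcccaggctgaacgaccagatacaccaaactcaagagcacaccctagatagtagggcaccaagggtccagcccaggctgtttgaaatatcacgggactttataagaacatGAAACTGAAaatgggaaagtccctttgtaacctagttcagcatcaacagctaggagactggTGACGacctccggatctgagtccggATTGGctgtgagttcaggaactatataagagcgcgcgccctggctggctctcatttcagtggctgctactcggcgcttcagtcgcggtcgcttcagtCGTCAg

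The H2-K1 and H2-D1 windows were identical at 206 of 228 alignment columns, gaps included (90.4%), and H2-Q10 was identical to H2-D1 at 256 of 303 columns (84.5%) and to H2-K1 at 195 of 235 (83.0%). The H2-M3 window was less alike, at 59.8% to 67.0% with these 3. GGGATTCCC was found in 100 of 27025 start-site windows (0.370%), among them H2-K1 and H2-D1. TTTCACTTC was found in 141 windows (0.522%), among them H2-K1, H2-D1, H2-Q10 and H2-M3. The B2m window held GAAANNGAA, which was found in 2317 windows (8.57%). TGACG and CCAAT were common, in 21.0% and 37.9% of windows, and the Tap1 window held 1 of each. Tap1 and Psmb9 are transcribed away from each other, and their windows shared 275 of 300 bases. A window was at hand for 9 of the 10 members, Tap2 being the other. A match is a run of letters in the C57BL/6 reference and not a shown binding site.

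Before the levels, 2 strains need to be set apart. H2-Ea, a class II gene at place 39 of the gene order above, is not transcribed from the C57BL/6 haplotype. It was at the floor of 4 on one array labelled BXD40 and read 7.57 on the other. It read 8.69 and 4.41 on the arrays labelled BXD42. In 15 strains both arrays lay over 7, and in BXD14, BXD19, BXD2, BXD39 and BXD8 both lay under 6, so the arrays labelled BXD40 and BXD42 disagreed with each other at a gene that separates the parental haplotypes. Tests on members that passed and rest on them are given with and without them, and other results only where stated. Markers of the sorted cells were present, with Kit, which encodes c-kit, averaging 9.44 and Cd34 averaging 8.74, and 9 of 13 markers of these cells were tested. Of these 9, 2 passed the strain effect described below, Procr and Flt3, so the sorted cells' own markers also differed between strains. Ly6a, which encodes Sca-1, had no probe set of its own to test. Some markers of other cells were bright too, with S100a8 averaging 10.98, Camp 10.94, Ighm 10.58 and Hba-a1 9.29. The brightest T and NK cell marker tested, Cd4, averaged 7.17. Probe sets differ in affinity, so these levels do not measure how pure the sorted cells were. Among markers of other cells, Camp, S100a8, S100a9 and Mpo of neutrophils and monocytes (4 of 12 tested), Ighm of B cells (1 of 8) and Hba-a1 of erythroid cells (1 of 4) passed the strain effect. By an ordinary F test the neutrophil and monocyte count was 3 of 12, and the B cell and erythroid counts were unchanged. Over all tested probe sets 2.80% passed the strain effect by limma. None of 5 T and NK cell markers and none of 4 dendritic cell and macrophage markers passed it by limma or by an ordinary F test, with 2 and 0 at an unadjusted p under 0.05.

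Most class I and loading probe sets did not pass a test for differences between strains. This strain effect, a limma F test over differences between strains within each array series with Benjamini-Hochberg adjustment over all 7453 probe sets, passed at an adjusted p under 0.05 for 2 of the 17 tested member probe sets, H2-D1 97541_f_at and Tap2 102873_at. Over all tested probe sets 209 passed (2.80%). At an unadjusted p under 0.05 the members had 7 of 17, against 890 of all tested probe sets (11.9%). The SD between strain means, with the level of each array series removed, had a median of 0.29 over the members and 0.26 over all tested probe sets. The share of variance that lay between strains had a median of 0.28 ± 0.11 over the members (jackknife SE over 22 strains) and 0.04 over all tested probe sets. Of the members 9 lie on chromosome 17, where Psmb9, Tap1, Psmb8 and Tap2 are neighbours. Several probe sets report the same or related transcripts, so the members are not independent of each other.

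**Figure D1:**
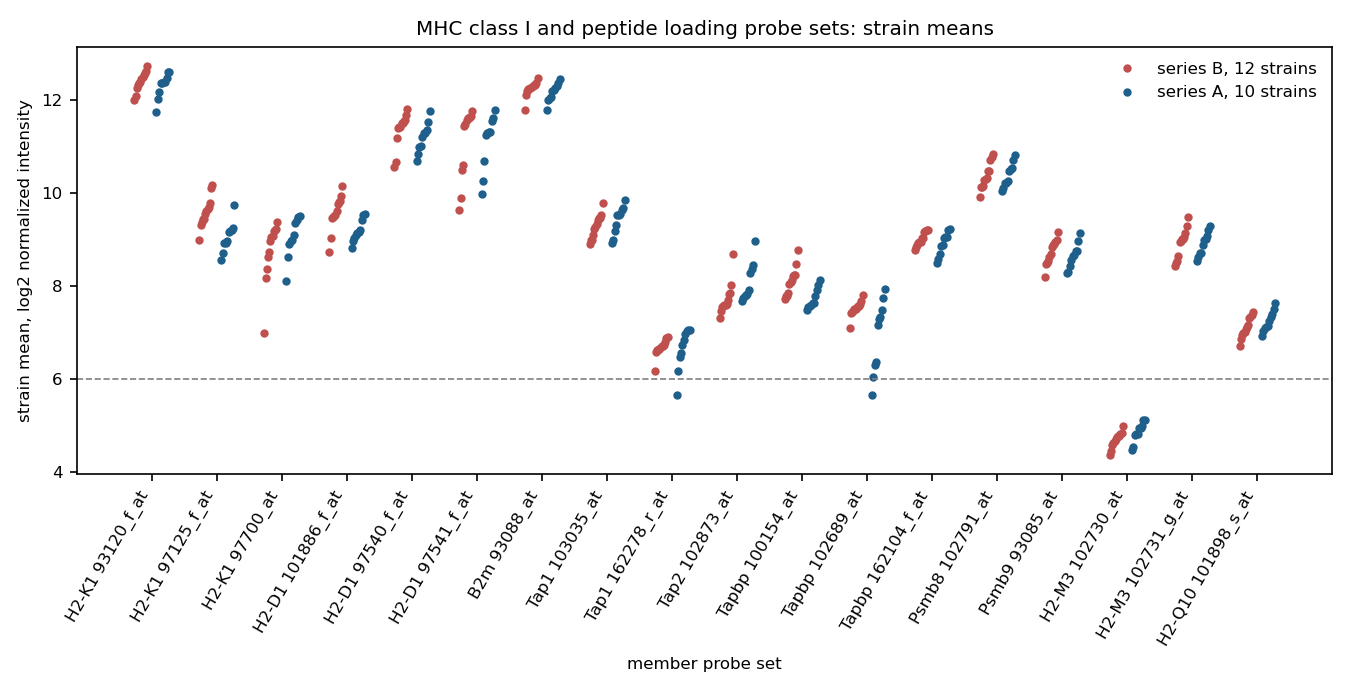
Mean log2 intensity of each strain (vertical axis) for the 18 member probe sets (horizontal axis), with the 12 strains of series B left of the 10 of series A and strains sorted within each; the dashed line is the limit of 6.00 for testing, on the mean over arrays. The strain means of H2-M3 102730_at lie below it, and H2-D1 97541_f_at has 4 strains of series B set apart below the other 8. Probe sets differ in probe affinity, so heights are not compared between them.

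Among the heavy chains, H2-D1 97541_f_at varied the most in relation to its error. The suffix f marks probes shared by a sequence family, so this probe set may also bind transcripts of related class I genes. Its arrays read 9.41 and 9.88 in BXD19, 10.13 and 9.63 in BXD14, 10.16 and 10.81 in BXD2, and 10.51 and 10.68 in BXD39. The other 8 strains of series B read between 11.36 and 11.95, above every array of those 4. In series A, BXD8 read 10.09 and 9.87, and 7 strains read between 11.06 and 12.01. The arrays labelled BXD40 read 9.57 and 10.96, and those labelled BXD42 read 11.28 and 10.08, so each of these labels had 1 low array. The log2 range of strain means was 2.12 in series B, between BXD19 and BXD28 (4.36-fold), and 1.80 in series A, between BXD8 and BXD33 (3.49-fold). The strain effect had an adjusted p of 1.67e-04, and 0.77 of the variance lay between strains. With BXD40 and BXD42 left out the adjusted p was 6.85e-07.

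In order from low to high, series B ran BXD19, BXD14, BXD2, BXD39, BXD9, BXD18, BXD16, BXD5, BXD21, BXD34, BXD1 and BXD28. Only the step from BXD39 to BXD9, of 0.83, was larger than 0.69, which is 2 within-strain SDs, so the other neighbours did not differ beyond their spread. In series A the order was BXD8, BXD40, BXD42, BXD12, BXD31, BXD11, BXD38, BXD6, BXD32 and BXD33. No step there passed 0.69, and the largest, from BXD42 to BXD12, was 0.57. That rests on BXD40 and BXD42, which alone lay between BXD8 at 9.98 and BXD12 at 11.25. With them left out, the step from BXD8 to BXD12 was larger than 0.69.

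Each strain was also set against the rest of its series, as the mean over those strains, in the same limma fit, with p-values adjusted over all probe sets within each strain. H2-D1 97541_f_at was 9.64 ± 0.33 in BXD19 (SD, n = 2) and lower than in the other 11 strains by 3.03-fold (log2 difference -1.60 ± 0.25, SE; limma adjusted p = 9.79e-04). In BXD14 it was 9.88 ± 0.35 and lower by 2.54-fold (-1.35 ± 0.25, adjusted p = 0.00701). In BXD8 it was 9.98 ± 0.16 and lower than in the rest of series A by 2.37-fold (-1.24 ± 0.26, adjusted p = 0.0229). With BXD40 and BXD42 left out, the BXD8 difference was -1.45 (adjusted p = 3.23e-05), that of BXD19 was -1.59 (4.68e-06) and that of BXD14 was -1.34 (6.08e-05). These tests called 0.577%, 0.362% and 0.228% of all probe sets in BXD19, BXD14 and BXD8. In all, 5 of 374 such tests on members passed, and 0.442% of those on all probe sets did.

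BXD2 did not pass at this probe set (-0.68 ± 0.25, adjusted p = 0.203), and it did pass with BXD40 and BXD42 left out (adjusted p = 0.0403). The calls rested on few arrays. BXD14 and BXD8 each lost theirs without either of their own arrays, where the lone array is assumed to vary like those of the other strains, and BXD19 lost its call without its replicate 1 (adjusted p = 0.182). Averaged over each marker list, no list differed from the rest of the series by more than 0.31 on the log2 scale in these 3 strains. The T and NK cell list was 7.21 in BXD14, against 6.90 in the rest of series B, with 3 of 5 markers higher. The dendritic cell and macrophage list was 7.39 in BXD19, against 7.11 in the rest, with 3 of 4 higher. The part of other cells in the result was not tested.

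**Figure D2:**
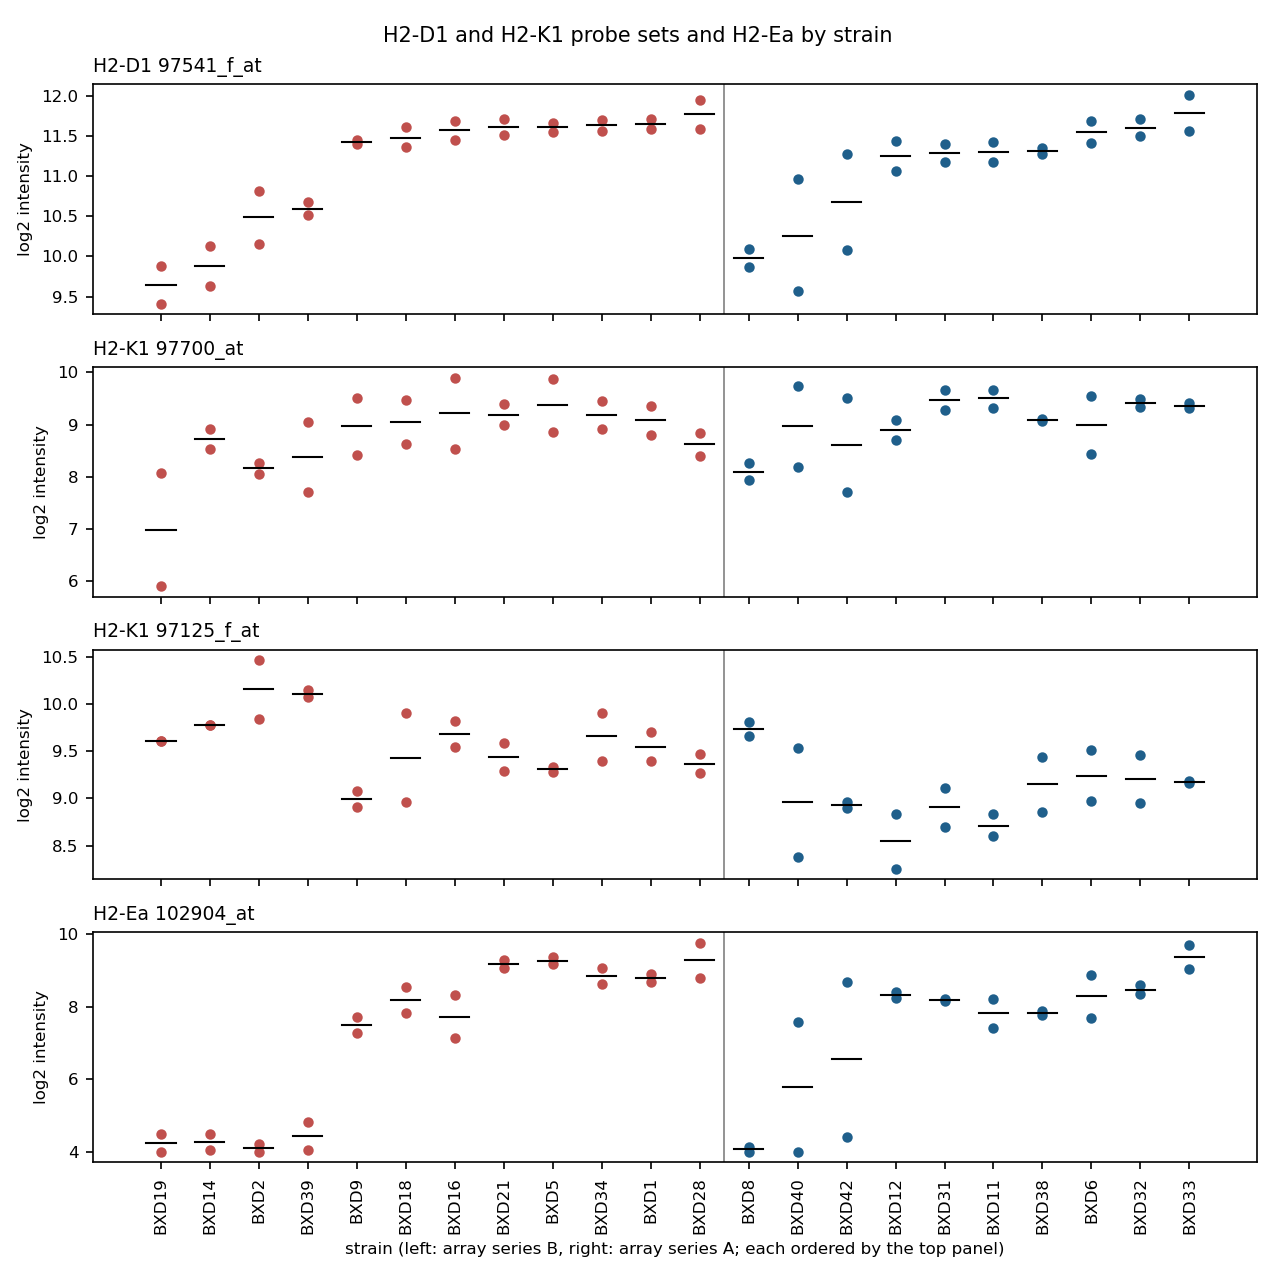
Log2 intensity (vertical axes) of H2-D1 97541_f_at, H2-K1 97700_at, H2-K1 97125_f_at and H2-Ea on each of the 2 arrays of a strain (points) with their mean (line); strains of series B are left of the vertical line and those of series A right of it, each ordered by the top panel. BXD19, BXD14, BXD2, BXD39 and BXD8 are low at both H2-D1 97541_f_at and H2-Ea, and the arrays labelled BXD40 and BXD42 split at both.

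Of 5614 tested genes that were no members, H2-Ea had the strain pattern most like that of H2-D1 97541_f_at. The measure of likeness was Pearson's r over 22 strain means centred within series, which was 0.95 (Spearman's rho 0.90, r = 0.95 without BXD40 and BXD42, n = 20). That value rests on separate clusters of strains. The 5 strains with H2-Ea under 6 on both arrays were the 4 lowest of series B and the lowest of series A at H2-D1 97541_f_at. Within the 15 strains over 7, r was 0.73 (rho 0.71). That was not particular to this probe set, as the other member probe sets there had r with H2-Ea from -0.32 to 0.69. The highest was H2-D1 97540_f_at, which had r = 0.15 with H2-Ea over all strains. Each array of BXD40 and BXD42 went with its own H2-Ea reading, low at both genes or high at both. The strain means share arrays, so these values describe the arrays and are not a test.

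Next in likeness were Rps28 (r = 0.87), a ribosomal protein gene, and H2-Aa (r = 0.73), which encodes a class II alpha chain, both on chromosome 17. Within the 15 strains Rps28 had r = -0.13 and H2-Aa had r = 0.67. Rps28 did not pass the strain effect (limma adjusted p = 0.833). Between the first and the last member on chromosome 17, 74 further genes were tested and 5 passed the strain effect (6.76%). They were H2-Ea, H2-Aa, Ltb (encoding lymphotoxin beta), Lst1 and Flot1. Flot1, which encodes the membrane protein flotillin 1, had r = -0.86 with H2-D1 97541_f_at, and r = -0.13 within the 15 strains.

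**Figure D3:**
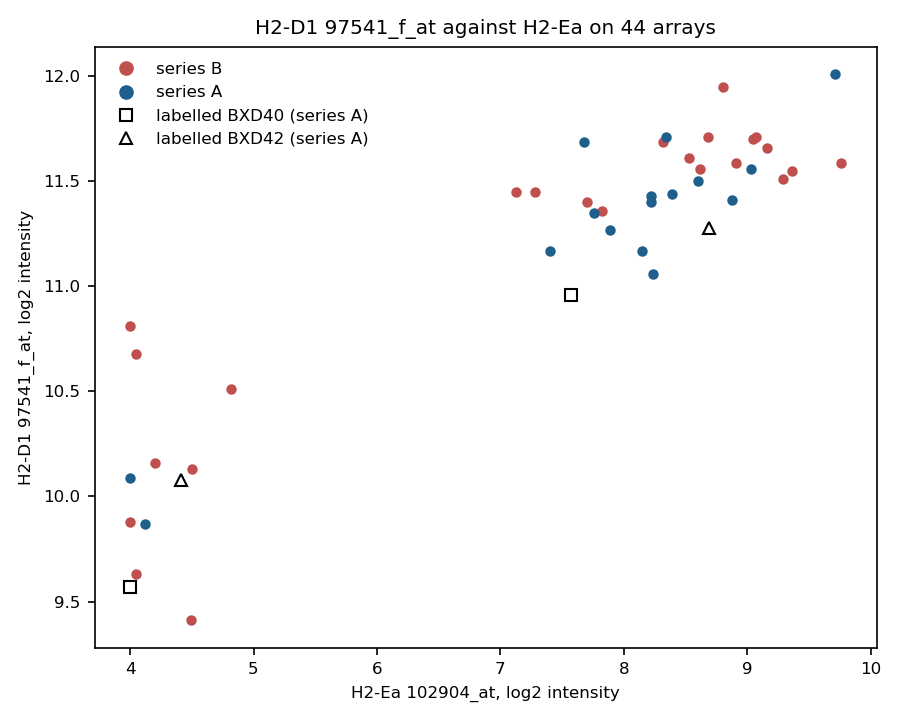
Log2 intensity of H2-D1 97541_f_at (vertical axis) against that of H2-Ea (horizontal axis) on 44 arrays, coloured by array series, with open symbols for the arrays labelled BXD40 and BXD42. The points form a low cluster with H2-Ea under 6 and a high cluster with H2-Ea over 7, and each open symbol type has 1 array in each.

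The other H2-D1 probe sets showed another pattern. H2-D1 97540_f_at had its lowest, median and highest array at 10.12, 11.39 and 12.01, and did not pass the strain effect (adjusted p = 0.178). BXD2, low at 97541_f_at, read 11.80 on both arrays and was the highest strain of series B at 97540_f_at. BXD14, with 10.57 and 10.52, was the lowest strain of series B at 97540_f_at and the second lowest at 97541_f_at. Over all 22 strains the 2 probe sets had r = 0.22. Within the 15 strains over 7 at H2-Ea they had r = 0.86 (rho 0.94). H2-D1 101886_f_at, with arrays between 8.59 and 10.44 and a median of 9.41, had r = 0.76 with 97540_f_at and 0.29 with 97541_f_at (strain effect adjusted p = 0.411).

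No H2-K1 probe set passed the strain effect. H2-K1 93120_f_at was the brightest of the members, with arrays from 11.73 to 13.17 and a median of 12.41, and its strains spanned 1.64-fold in series B and 1.83-fold in series A (adjusted p = 0.603). The lowest of series A was BXD42. With BXD40 and BXD42 left out, series A ran from 12.01 in BXD6 to 12.61 in BXD32. H2-K1 97700_at ran from 5.90 to 9.90 with a median of 9.02 (adjusted p = 0.575). It was lowest in BXD19, whose arrays read 5.90 and 8.08, in series B, and in BXD8, with 8.27 and 7.94, in series A. BXD19 was below the other strains of its series by 1.91 on the log2 scale but its arrays lay far apart, and the test did not pass (adjusted p = 0.0554), while without BXD40 and BXD42 it did (adjusted p = 0.0196). This probe set had r = 0.79 with H2-D1 97541_f_at over all strains and 0.01 within the 15.

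H2-K1 97125_f_at ran the other way in some strains. Its highest strains were BXD2, with 9.84 and 10.47, BXD39, with a mean of 10.11, and, in series A, BXD8, with a mean of 9.74, all low at H2-D1 97541_f_at. BXD19 and BXD14, the lowest of series B at H2-D1 97541_f_at, were only 0.02 and 0.20 above the rest of series B here. None of these passed the single-strain test (BXD2 0.62 ± 0.24 above the rest, adjusted p = 0.239), and the strain effect had an adjusted p of 0.418. With H2-D1 97541_f_at it had r = -0.44 over all strains and 0.61 within the 15. The pairs of the 3 H2-K1 probe sets had r between -0.41 and 0.42. As none of the 3 passed the strain effect, these values cannot tell differing strain orders from spread between arrays.

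B2m, shared by all class I molecules, was bright and even. Its arrays lay between 11.28 and 12.52 with a median of 12.26, its strains spanned 1.59-fold in series B and 1.58-fold in series A, and 0.03 of its variance lay between strains (adjusted p = 0.901). H2-Q10, which encodes a secreted class I molecule made mainly by liver, had arrays between 6.51 and 7.71 with a median of 7.18 (adjusted p = 0.946). H2-M3, which presents peptides that start with formylmethionine, lay between 7.93 and 9.78 with a median of 8.97 at 102731_g_at (adjusted p = 0.575). Its dim probe set 102730_at lay between 4.17 and 5.47, and the 2 had r = 0.35.

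Tap2 was the loading gene that differed between strains. Its arrays read 8.49 and 8.89 in BXD2, and between 6.96 and 8.12 in the other 11 strains of series B. In series A they read 9.22 and 8.72 in BXD33, and between 7.51 and 8.59 in the other 9 strains. Both arrays of each of these strains lay above every other array of their series. The strain effect had an adjusted p of 0.00657 (0.00931 without BXD40 and BXD42), and 0.71 of the variance lay between strains. Tap2 averaged 8.69 ± 0.28 (SD, n = 2) in BXD2, against 7.64 in the rest of series B, a 2.08-fold difference (log2 difference 1.06 ± 0.18, SE; limma adjusted p = 0.00153). In BXD33 it averaged 8.97 ± 0.35, against 7.98 in the rest of series A, a 1.98-fold difference (0.99 ± 0.19, adjusted p = 0.00737). With BXD40 and BXD42 left out, the differences were 1.06 in BXD2 (adjusted p = 0.00144) and 1.11 in BXD33 (0.00236). These tests called 1.69% of all probe sets in BXD2 and 0.242% in BXD33.

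The order in series B was BXD16, BXD28, BXD14, BXD5, BXD34, BXD19, BXD21, BXD1, BXD39, BXD9, BXD18 and BXD2, and only the step of 0.67 from BXD18 to BXD2 exceeded 2 within-strain SDs (0.45). In series A it was BXD32, BXD38, BXD31, BXD11, BXD12, BXD6, BXD8, BXD40, BXD42 and BXD33, and only the step of 0.52 from BXD42 to BXD33 exceeded that limit. The call in BXD2 was lost without its replicate 2 (adjusted p = 0.184) and that in BXD33 without its replicate 1 (adjusted p = 0.576). Without the strain BXD2 the strain effect of Tap2 had an adjusted p of 0.0776. The nearest patterns among other genes were those of Tha1, which encodes threonine aldolase (r = 0.80), Sin3b, a transcriptional corepressor gene (r = 0.73), and Fbxw5, an F-box gene (r = 0.72), over 22 strains. Without the 2 strains farthest from the median these were 0.63, 0.49 and 0.59. These genes were picked as the highest of 5614, and none of them passed the strain effect (limma adjusted p = 0.186, 0.871 and 0.955).

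Markers of other cells moved in BXD2 as well. The 12 tested neutrophil and monocyte markers averaged 9.62 in BXD2, against 9.09 in the rest of series B, whose strains lay between 8.94 and 9.31, and 11 of the 12 were higher. In BXD33 the same list averaged 9.22, against 9.29 in the rest of series A, with 2 of 12 higher. The list that differed most in BXD33 was that of the sorted stem and progenitor cells. It averaged 9.32, against 9.07 in the rest of series A, whose strains lay between 8.92 and 9.33, and 7 of 9 markers were higher. The part of any of these cells in the Tap2 levels of BXD2 and BXD33 was not tested.

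**Figure D4:**
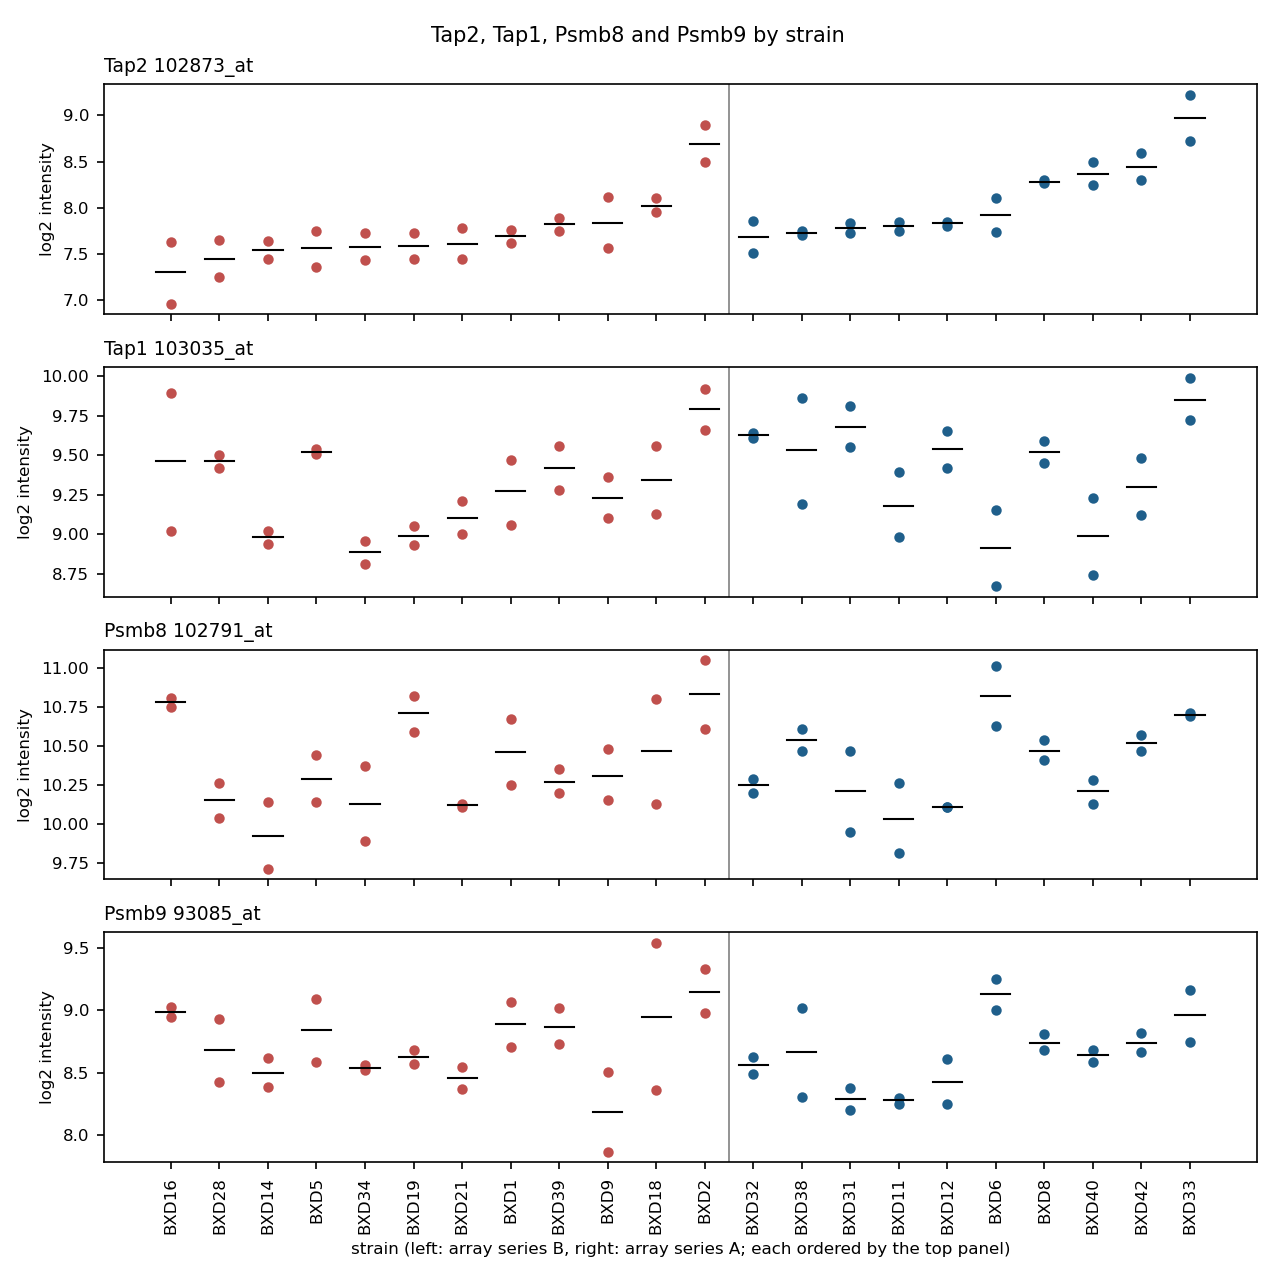
Log2 intensity (vertical axes) of Tap2 102873_at, Tap1 103035_at, Psmb8 102791_at and Psmb9 93085_at on each of the 2 arrays of a strain (points) with their mean (line), series B left and series A right of the vertical line, each ordered by Tap2. BXD2 and BXD33 are the highest strains of their series at Tap2 and at Tap1, where neither passed the test.

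The genes beside Tap2 did not pass the strain effect, although BXD2 and BXD33 were high at several of them. Tap1 103035_at had arrays between 8.67 and 9.99 with a median of 9.40 (adjusted p = 0.312). BXD2 had 9.92 and 9.66 there, 0.55 ± 0.20 above the rest of series B (SE, adjusted p = 0.192), and BXD33 had 9.72 and 9.99, 0.49 ± 0.20 above the rest of series A (adjusted p = 0.555). The second Tap1 probe set, 162278_r_at, ran between 4.67 and 7.40 with a median of 6.70 and was lowest of series A in BXD33, whose arrays read 4.67 and 6.62. The 2 Tap1 probe sets had r = -0.28.

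Psmb8 lay between 9.71 and 11.05 with a median of 10.36 (adjusted p = 0.221), and Psmb9 between 7.87 and 9.54 with a median of 8.65 (adjusted p = 0.571). They had the same highest strain in each series, BXD2 in B (10.83 ± 0.31 and 9.15 ± 0.25) and BXD6 in A (10.82 ± 0.27 and 9.13 ± 0.18), and r = 0.76 with each other. Tap2 had r = 0.31 with Tap1 103035_at, 0.42 with Psmb8 and 0.46 with Psmb9, and -0.26, 0.10 and 0.18 without BXD2 and BXD33, the 2 strains farthest from the median of Tap2.

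Tapbp had 3 probe sets, and none passed the strain effect. Tapbp 100154_at lay between 7.20 and 9.15 (adjusted p = 0.642), 162104_f_at between 8.18 and 9.62 (adjusted p = 0.912) and 102689_at between 4.25 and 8.12 (adjusted p = 0.420). Their pairs had r from -0.63 to -0.12. With no strain effect passed, these values cannot tell differing strain orders from spread between arrays. Tapbp 100154_at was highest in BXD2, with 8.40 and 9.15, and had r = 0.59 with Psmb8 and 0.56 with Psmb9.

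Across the members, BXD2 was the highest strain of series B at 8 of 17 probe sets and the lowest at none, where it was the highest at 12.3% and the lowest at 13.2% of all tested probe sets. Over all members BXD2 was above the rest of series B at 10 of 17, with a median difference of 0.04. The 8 were H2-K1 97125_f_at, H2-D1 101886_f_at and 97540_f_at, Tap1 103035_at, Tap2, Tapbp 100154_at, Psmb8 and Psmb9. BXD33 was above the mean of the other strains of series A at 13 of 17 probe sets, against 49.9% of all tested probe sets, with a median difference of 0.33 on the log2 scale. BXD38, also of series A, and BXD16 of series B were likewise above the rest of their series at 13 of 17, with median differences of 0.06 and 0.19. BXD33 was the highest of series A at 5, namely H2-D1 97540_f_at and 97541_f_at, B2m, Tap1 103035_at and Tap2, against 8.98% of all. Of the 17 single-strain tests on members, only that on Tap2 passed in each of these 2 strains.

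**Figure D5:**
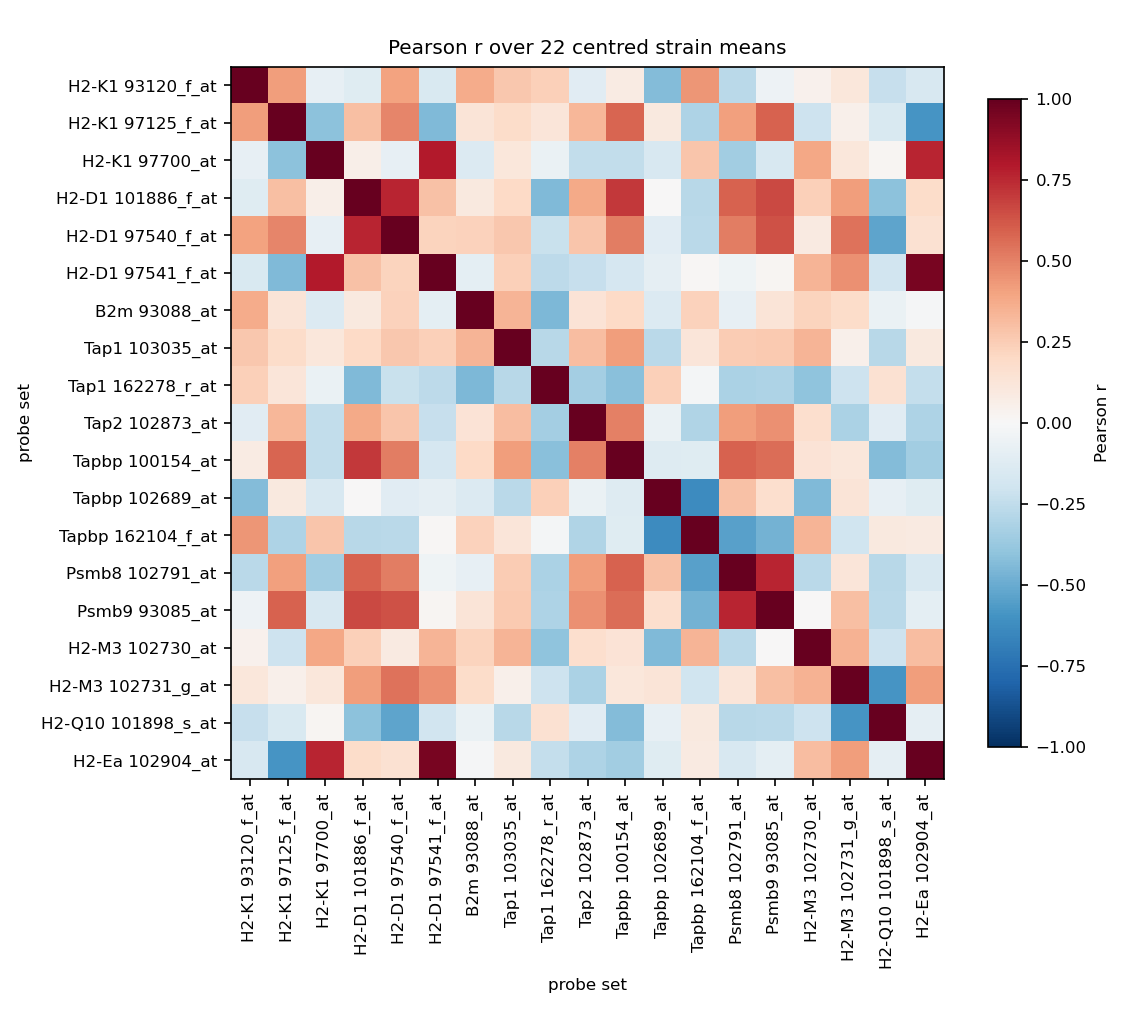
Pearson's r between member probe sets, with H2-Ea in the last row and column, over 22 strain means centred within series (colour scale from -1 to 1). The darkest squares off the diagonal join H2-D1 97541_f_at to H2-Ea and to H2-K1 97700_at, while H2-D1 101886_f_at, 97540_f_at, Tapbp 100154_at, Psmb8 and Psmb9 are joined by values over 0.45.

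As a group the members were loosely related. Over the 126 pairs of tested probe sets from different member genes, r had a median of 0.07 and ran from -0.59 to 0.79. Over the 10 pairs from the same gene it had a median of -0.10 and ran from -0.63 to 0.76. Most of these probe sets did not pass the strain effect, and how far spread between arrays lowered r was not tested. Each result thus holds for the probe set named.

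Series B and series A held different strains, so a difference between them cannot be told apart from one between array series. On strain means, 1628 of all tested probe sets (21.8%) differed by limma, 802 (10.8%) of them higher in B. Of the members 3 of 17 differed, all higher in B. H2-K1 97125_f_at averaged 9.59 ± 0.33 in series B (SD, n = 12 strains) and 9.06 ± 0.33 in series A (n = 10), a difference of 0.54 ± 0.14 (SE, limma adjusted p = 0.00653). Tapbp 100154_at averaged 8.11 ± 0.31 in series B and 7.72 ± 0.22 in series A (0.38 ± 0.12, adjusted p = 0.0208). H2-D1 101886_f_at averaged 9.57 ± 0.38 in series B and 9.19 ± 0.24 in series A (0.38 ± 0.14, adjusted p = 0.0465). Without BXD40 and BXD42 only H2-K1 97125_f_at passed (adjusted p = 0.0217), with Tapbp 100154_at at 0.0642 and H2-D1 101886_f_at at 0.0956. The members' share of calls was close to that of all probe sets.

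Genes that work with the members were counted from lists chosen with earlier results of these data known, with each gene at its brightest probe set. For comparison with each count, 2.80% of all tested probe sets passed the strain effect, and 11.9% had an unadjusted p under 0.05. Of 5 tested loading partners none passed the strain effect by limma or by an ordinary F test, and 1 had an unadjusted p under 0.05. That was Psmb10, a further immunoproteasome subunit gene (adjusted p = 0.354), which had r = 0.68 with Tap2. Psmb10 was highest in BXD2 in series B and in BXD33 in series A, and this r was not taken without them. The endoplasmic reticulum chaperone gene Hspa5 had an adjusted p of 0.690. Of the 3 standard proteasome subunits that the immune subunits stand in for, Psmb6 passed (adjusted p = 9.70e-04). It was lowest in BXD2 in series B, with a range of 6.79-fold, and lowest in BXD33 in series A, with a range of 7.33-fold, the strains highest at Tap2, although its r with Tap2 was -0.24. In the single-strain test Psmb6 passed in BXD33 and not in BXD2.

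Of 8 further class I and class I-like genes, 1 passed. It was Cd1d2, which encodes a lipid-presenting molecule (adjusted p = 0.00182). The heavy-chain genes H2-Q4 and H2-Bl did not pass (adjusted p = 0.625 and 0.549). Of 9 regulators, Irf8, an interferon regulatory factor gene, passed (adjusted p = 0.00147) and had r = 0.07 with H2-D1 97541_f_at. Irf9 and Irf1 did not pass (adjusted p = 0.213 and 0.767). Of 8 class II genes, H2-Ea and H2-Aa passed (adjusted p = 2.11e-05 and 0.0119). By an ordinary F test 1 of the 8 passed.

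Of 14 interferon-induced genes, 3 passed, namely Isg20, an exonuclease gene (adjusted p = 0.0190), the antiviral gene Rsad2 (0.0195) and the GTPase gene Iigp1 (0.0257). By an ordinary F test 2 of the 14 passed. Rsad2 was called in BXD2, where it was the lowest of series B, and had r = -0.72 with Tap2. Usp18 (adjusted p = 0.0695) and Mx1 (0.102) did not pass the strain effect. In the single-strain test Usp18 was called in BXD2, where it too was the lowest of series B, and Mx1 was called in BXD5. Usp18 had r = -0.42 with Tap2. The r values of Rsad2 and Usp18 with Tap2 were not taken without BXD2 and BXD33, so how far they rest on these strains was not tested. With H2-D1 97541_f_at, Rsad2 had r = 0.24 and Usp18 0.25. Isg20 had r = 0.41 with Tap2 and Iigp1 had -0.01, and in series A the lowest strain at Rsad2 and Usp18 was BXD42, not BXD33.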

How the data were processed

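RNA of 44 sorted marrow samples was measured on MG_U74Av2 arrays. The authors' deposited table held intensities on a linear scale for 12488 probe sets, whose 2% trimmed mean lay between 200.07 and 200.09 on every array; the summarising software is not given in the sources used here. Each of its columns matched 1 of the 44 samples.

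A floor of 16 was applied to the intensities, log2 was taken and arrays, with medians from 6.55 to 6.83, were quantile normalized. The 66 control probe sets and those under the 40th percentile of mean level (6.00) were left out. Gene symbols were taken from the probe annotation of the platform, with 10833 probe sets of 1 symbol, 396 of several and 1193 of none, and 10817 matched RefSeq by Entrez identifier. Nothing was read from the probe table's RefSeq match but names, chromosomes and gene order.

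limma 3.58.1 in R 4.3.3 fitted strain means (22 residual and 4.37 prior degrees of freedom). The strain effect was an F test over 20 contrasts within series, single strains were set against the mean of the other strains of their series, and series B was set against A on 22 strain means. All p-values were adjusted by Benjamini-Hochberg over all tested probe sets. Correlations used strain means centred within series and have no p. Steps were tested on simulated data. Promoter windows were aligned with Biopython 1.88.

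Members and gene lists were chosen with earlier results of these data known. Members were described in full where a probe set passed the strain effect or was the brightest or dimmest of its class, and like genes were the 3 with the highest r. Alternatives changed the normalization, floor, filter, moderation or series term, or left out strains or arrays.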

Additional observations from a re-analysis of the deposited data

How the results depend on the processing

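The count of the strain effect, 209 of all probe sets, was 171 to 247 without 1 array, 171 to 235 without 1 strain, 483 with the array series not modelled and 52 in series A alone. Its count of members, 2, was 2 to 3 without 1 array and 1 to 2 without 1 strain, with 1 left without BXD2. It was 1 in series B alone, and 0 in series A alone by limma and by an ordinary F test, where 3 members had an unadjusted p under 0.05; fewer samples enter those fits. H2-D1 97541_f_at passed in 73 of 74 alternatives and missed the threshold with only series A fitted (adjusted p = 0.347). Tap2 passed in 71, the exceptions being each series alone and the fit without BXD2. Of the 15 members that did not pass, H2-K1 97125_f_at passed with the series not modelled (adjusted p = 0.0395), H2-D1 97540_f_at without BXD9 replicate 1 (0.0441) and Tapbp 102689_at without BXD32 replicate 1 (0.00584). Single-strain calls on members, 5, were 4 to 7 without 1 array and 4 to 6 without 1 strain. That in BXD8 was also lost with no quantile normalization and without BXD32. Between the series, 1628 calls were 1351 to 1699 without 1 array and 1431 to 1672 without 1 strain, and the 3 members were 2 to 4 in both cases and 1 without BXD40 and BXD42. H2-D1 101886_f_at lost its call in 39 of 71 alternatives. No direction was reversed, and the cause of these changes was not tested. No paired analysis was possible because the replicate numbers follow the order of deposit and no strain was in both series.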
